A study of Caenorhabditis elegans with 17 samples.

Results

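The 70 genes described here belong to 9 families, the major sperm protein genes and other small families grouped with them as sperm-enriched. They were picked by a rule on gene names among the 21459 genes of the deposited table, with earlier results of these data known. The mean normalised count, the only measured value used, orders them. The families are *msp* (29 genes), *ssp* (12), *nspd* (9), *nsph* (8), *nspa* (4), *spch* (3), *smz* (2), *sss* (1) and the pair *gsp-3* and *gsp-4* (2). RNA was sequenced from mature oocytes dissected from wild-type *C. elegans* mothers. One group of mothers was kept on agar with 300 mM NaCl from the L4 larval stage to the first day of adulthood (8 libraries), and the control group was kept on normal growth agar (NGM) over the same stages (9 libraries). Both groups were raised on NGM before that, and some gonadal sheath stays attached to the oocytes. The study describes the oocytes of a single animal per replicate, and the labels give 3 replicate numbers in each group, with several libraries to a number. The value given for each gene is the authors' mean over all libraries of both groups that they entered, so it has no SD, no n per group and no test, and it shows nothing of the effect of NaCl. In a bulk library, fewer cells of a type and less RNA per cell cannot be told apart.

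*C. elegans* sperm crawl instead of swimming, and the major sperm protein, MSP, builds the filaments that move them. MSP is also released by sperm as a signal that acts through receptors such as the Eph receptor VAB-1 on oocytes and sheath cells, and promotes oocyte maturation and ovulation. Hermaphrodites make sperm in the last larval stage and then switch to oocytes, and the *msp* genes are known to be transcribed in developing sperm. The finished sperm are stored in the spermatheca, next to the most mature oocyte.

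The mean normalised count of the 70 genes ran from 0.896 (*nspa-3*) to 157.6 (*nsph-1.2*), with a median of 24.9, against 12.3 for all 21459 genes and 22.6 for the 17713 protein-coding ones. A mean of at least 10 was reached by 50 of the 70 genes (71.4%), against 52.6% of all genes and 59.6% of the protein-coding ones. A mean of at least 100 was reached by 3 of the 70 genes (4.29%), against 30.8% of all genes and 36.3% of the protein-coding ones. These shares are not divided by length, and the median exon length was 384 bp for the 70 genes and 1248 bp for protein-coding ones. Of the 51 single-exon genes among the 70, 74.5% reached 10 and 1.96% reached 100, against 40.3% and 14.5% of the other 352 single-exon protein-coding genes, whose median exon length was 372 bp. None of these shares was tested. Together they held 0.0493% of the summed mean normalised counts, or 2178 of 4414705. *oma-1*, a single gene for an RNA-binding protein of maturing oocytes, had a mean of 1821, or 0.836 times that total.

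**Figure D1:**
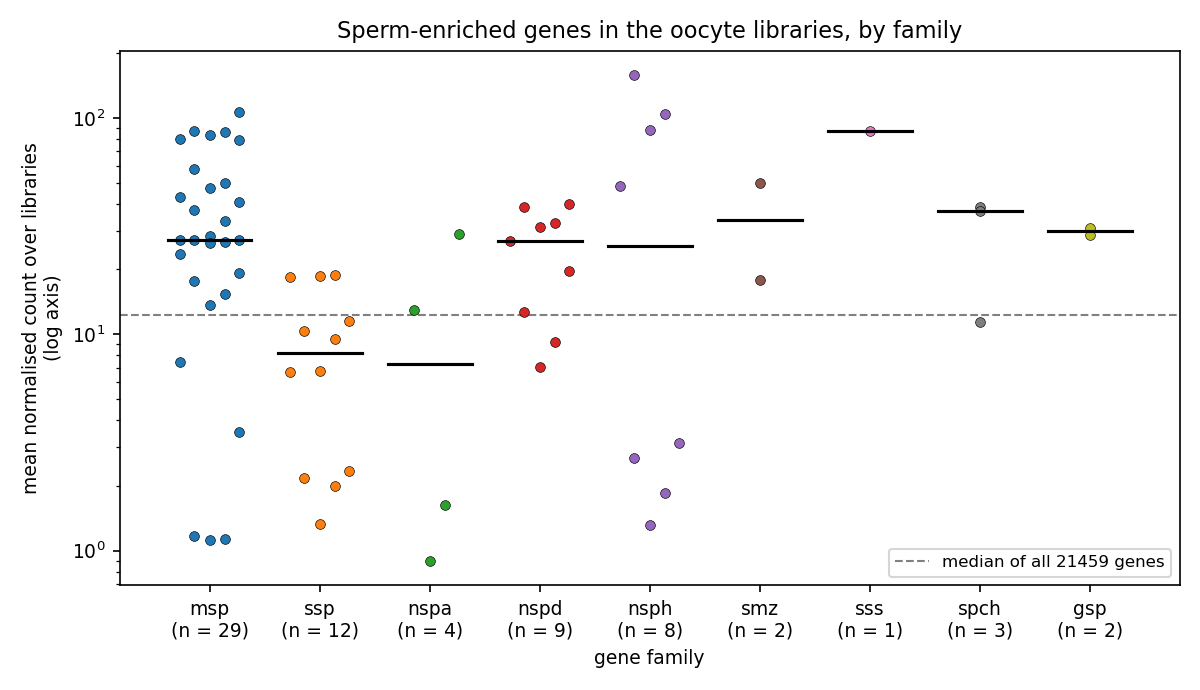
Mean normalised count of each of the 70 genes (points, log axis), by family, with the family median (black bar) and the median of all 21459 genes (dashed line, 12.3). The *msp* and *nsph* genes spread over the widest ranges, from 1.12 to 106.3 and from 1.31 to 157.6.

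The *msp* genes encode the major sperm protein itself. Their mean normalised counts ran from 1.12 (*msp-58*) to 106.3 (*msp-40*) with a median of 27.3, and 24 of the 29 reached 10. They made up 50.4% of the summed mean of the 70 genes. All 29 are annotated as protein-coding genes with 1 exon, and 26 share one coding length of 127 codons, so their levels can be set beside each other without a correction for length. Among these 26 the mean ran from 1.13 (*msp-63*) to 106.3, which is 94.0 times as high. The highest after *msp-40* were *msp-59* (87.3), *msp-33* (85.9), *msp-49* (83.1), *msp-152* (79.4) and *msp-50* (78.7). These 6 genes lay apart from the next, *msp-57* (58.2). *msp-76* (49.8), *msp-81* (47.5), *msp-3* (43.3), *msp-36* (40.7), *msp-55* (37.5) and *msp-78* (33.3) followed in a graded order. A group of 6 genes had nearly the same mean, between 26.4 and 28.6, namely *msp-64*, *msp-77*, *msp-53*, *msp-51*, *msp-113* and *msp-19*. Below them were *msp-65* (23.4), *msp-142* (19.1), *msp-56* (17.7), *msp-38* (15.3), *msp-79* (13.7) and *msp-10* (7.45). The 3 genes with a shorter reading frame were all low, with 3.53 for *msp-74* and 1.12 for *msp-58* (77 codons each) and 1.17 for *msp-32* (119 codons). *msp-63* had the full 127 codons and a mean as low as theirs. The *msp* copies are known to be nearly identical in sequence, and the treatment of reads that match several copies is not given in the sources used here. The level of any one copy is for that reason uncertain.

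All 29 *msp* genes lie on chromosomes II and IV, in 4 arrays when neighbours up to 500 kb apart are joined (WBcel235 coordinates). On chromosome II the first array runs from 4785898 to 5200180 and holds 8 genes, with a median of 79.1 and a range from 1.17 to 106.3. The second runs from 5797065 to 5810330 and holds 3 genes, at 1.13, 19.1 and 28.6. On chromosome IV the first array, from 5055631 to 5316906, holds 9 genes with a median of 27.2, and the second, from 9689015 to 10143740, holds 9 with a median of 27.3. Of the 6 highest *msp* genes, *msp-59* stands in the first array of chromosome IV, and the others stand in the first array of chromosome II. The lowest 4 *msp* genes, *msp-58*, *msp-63*, *msp-32* and *msp-74*, are spread over 3 of the arrays, and the second array of chromosome IV has no gene below 7.45.

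**Figure D2:**
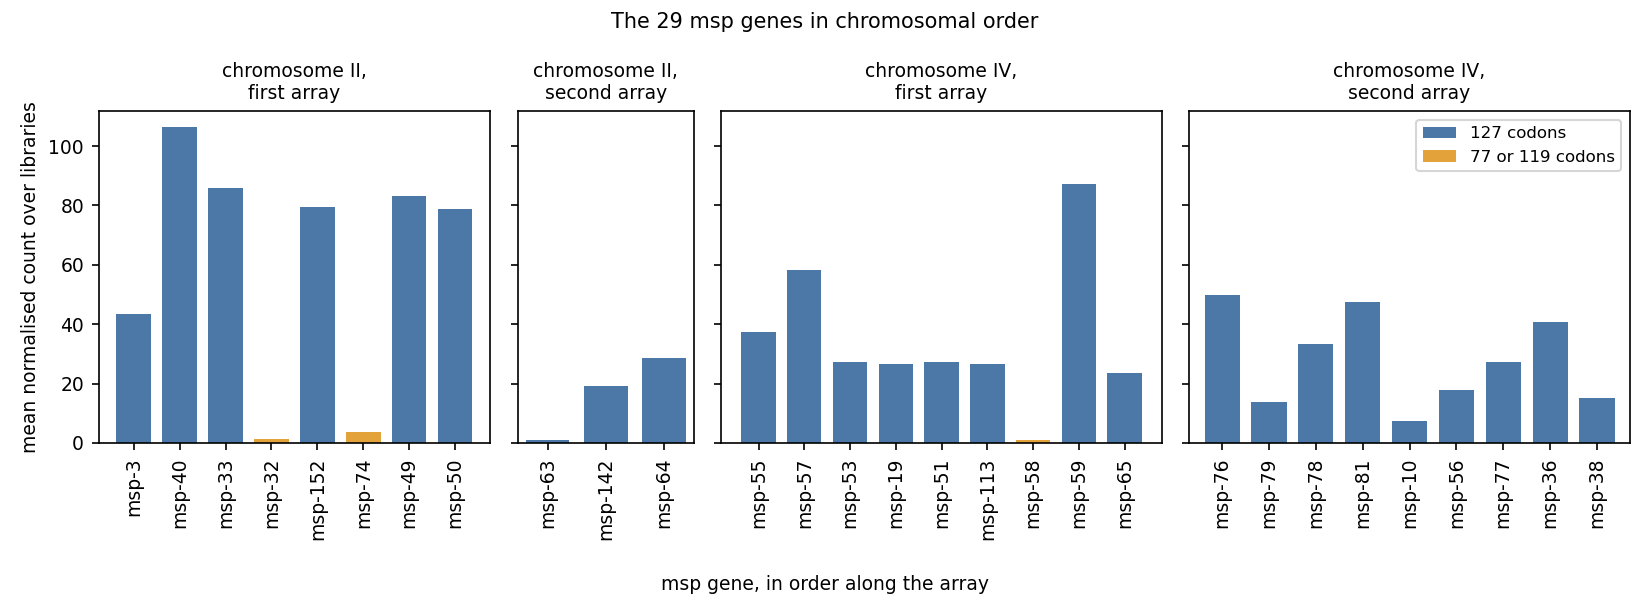
Mean normalised count (linear axis) of the 29 *msp* genes, 1 bar per gene, in order along each of the 4 arrays. Blue bars are genes of 127 codons and orange bars are shorter ones. Low and high *msp* copies are neighbours among the *msp* genes of an array, as with *msp-58* (1.12) beside *msp-59* (87.3).

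Genes of the other families stand among the *msp* genes. The spans of the arrays hold 13 of the 41 genes of the other families: *nspd-4* and *nspd-5* in the first array of chromosome II, *nspd-3*, *nspd-6*, *nsph-4.1* and *nsph-4.2* in the first of chromosome IV, and *nspd-2*, *nsph-3.2*, *spch-1*, *ssp-10*, *ssp-32*, *ssp-36* and *sss-1* in its second. With the *msp* genes this makes 42 of the 70. Other protein-coding genes in the same spans had medians of 28.2 (104 genes), 4.04 (4 genes), 11.4 (53 genes) and 31.7 (114 genes), in the order of the arrays above. Over the 9 families, 35 of the 70 genes lie on chromosome IV, against 16.9% of protein-coding genes in the table. Chromosome II holds 14 of the 70 and 17.6% of protein-coding genes, chromosome I 13 (18.6%, against 15.6%), chromosome V 6 (8.57%, against 22.3%) and chromosome III 2 (2.86%, against 14.2%). The X chromosome holds 0 of the 70, against 13.4% of protein-coding genes. Members of a family often lie close together, so the choice of families fixes much of these positions. The 4 listed *nspc* genes, of another nematode-specific family that was not among the names chosen, all lie on the X chromosome.

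Genes of these families next to each other among the 70 were compared in level. Within 5 kb of each other lie 19 such pairs, 9 transcribed away from each other, 7 in one direction and 3 towards each other. On the scale of mean normalised count per kb of annotated exon, the higher of a pair was between 1.02 and 47.4 times the lower, with a median of 3.54, and 6 of the 19 pairs were within 2 times. Another gene of the table lies between the members of 9 of the pairs, *msp-51* with *msp-113* and *msp-58* with *msp-59* included. The same ratio was not computed for pairs of other genes. *msp-51* and *msp-113*, 2621 bp apart, had 70.9 and 69.6 per kb. *msp-63* and *msp-142* are transcribed away from each other across only 478 bp, and had 2.95 and 49.8 per kb. *msp-81* and *msp-10*, 1231 bp apart in the same arrangement, had 124 and 19.4 per kb. *spch-1* and *nsph-3.2*, of different families, share a gap of 1328 bp and had 55.2 and 78.6 per kb. *sss-1* and *msp-77*, 881 bp apart, had 94.3 and 71.2 per kb. The widest gap in level was between *msp-58* and *msp-59*, at 4.80 and 227 per kb.

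The *ssp* genes encode small sperm-specific proteins related to MSP, with slightly shorter reading frames. Their means ran from 1.34 to 18.7 with a median of 8.16, and 5 of the 12 reached 10. The highest were *ssp-35* (18.7), *ssp-11* (18.6) and *ssp-10* (18.3), followed by *ssp-16* (11.5) and *ssp-19* (10.3). *ssp-34* was just below 10, at 9.54. *ssp-31* (6.79) and *ssp-37* (6.69) came next, and *ssp-36* (2.35), *ssp-9* (2.16), *ssp-33* (1.996) and *ssp-32* (1.34) were lowest. The 3 *ssp* genes annotated with an intron, *ssp-37*, *ssp-36* and *ssp-32*, were among the lower 6. *ssp-9* and *ssp-11* are 4784 bp apart on one strand of chromosome IV and have the same exon length of 330 bp. *ssp-11* had a mean of 8.60 times that of *ssp-9*. The annotation gives both genes the name *ssp-9*. How alike their sequences are was not measured, and the treatment of reads that match several genes is not given in the sources used here. The ratio is for that reason uncertain.

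The *nspd* and *nspa* genes encode very short nematode-specific peptides, of 70 to 73 and of 34 codons. The means of the 9 *nspd* genes ran from 7.03 to 39.9 with a median of 27.0, a ratio of 5.67 from highest to lowest. Among families of more than 3 genes this was the narrowest range. *nspd-2* (39.9), *nspd-1* (38.9), *nspd-5* (32.8), *nspd-7* (31.3) and *nspd-10* (27.0) stood above *nspd-4* (19.6) and *nspd-3* (12.6). *nspd-9* (9.23) and *nspd-6* (7.03) were below 10. The 4 *nspa* genes lie together on chromosome V from 14826948 to 14884820 and fell into a higher and a lower pair. *nspa-8* had a mean of 28.9 and *nspa-5* one of 13.0, while *nspa-4* had 1.63 and *nspa-3* had 0.896, the only one of the 70 below 1. All 4 have 34 codons, and the annotation gives *nspa-4* the name *nspa-5* as well. Whether reads shared among these genes moved their values was not tested. *nspa-8* lies opposite to *W06A7.4*, which had a mean of 1079, and whether the counting used strand is not given in the sources used here. Whether reads of *W06A7.4* entered the value of *nspa-8* was not tested.

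The 8 *nsph* genes, a further nematode-specific family with longer proteins, separated into 4 high and 4 low genes with none between 3.14 and 48.2. *nsph-1.2* (157.6), *nsph-3.2* (103.9), *nsph-3.1* (88.3) and *nsph-2* (48.2) were the high ones, and *nsph-4.2* (3.14), *nsph-1.1* (2.69), *nsph-4.3* (1.84) and *nsph-4.1* (1.31) the low ones. The 3 genes of the *nsph-4* subgroup were thus all low and both of the *nsph-3* subgroup high, while the *nsph-1* pair was divided between the groups. *nsph-1.2* and *nsph-1.1* are annotated with up to 9 exons each, against 3 for the other *nsph* genes. *nsph-1.2*, with the highest mean of the 70 before division by length, lies on chromosome I from 12183688 to 12189008. *nsph-1.1* overlaps *pah-1* (mean 9.38), *K08F8.14* and *K08F8.15* (0.728), and *K08F8.15* is on its own strand. The part of their reads in its value was not tested.

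The remaining genes belong to the *sss*, *smz*, *spch* and *gsp* families. *sss-1*, a sperm-specific gene of chromosome IV from 9892739 to 9893749, had a mean of 86.7. *smz-1* and *smz-2* encode PDZ-domain proteins of sperm meiosis with 274 codons each, and had means of 49.7 and 17.8. The sperm chromatin genes *spch-3* (38.8) and *spch-1* (37.2) were near each other in level and *spch-2* (11.4) was lower. *gsp-4* and *gsp-3* encode type 1 protein phosphatases needed for sperm meiosis and motility, with 305 codons each. Their means were 31.0 and 28.7, the closest of any family of more than 1 gene.

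Length changed the order of the families. In mean normalised count per kb of exon, the family medians were 122 for *nspd*, 94.3 for *sss-1*, 71.2 for *msp*, 69.4 for *nspa*, 51.6 for *spch*, 30.1 for *smz*, 26.3 for *gsp*, 25.2 for *ssp* and 23.7 for *nsph*. The *msp* family had rank 3 of 9 on this scale, rank 5 by the median not divided by length, and rank 1 by the summed mean. The median of the 70 genes was 56.0 per kb, above 61.0% of protein-coding genes, whose own median was 17.7 per kb. The gene models of 52 of the 70 hold coding length and stop codon with no UTR, against 9.63% of protein-coding genes, so most of the 70 and most of the other genes were divided by different kinds of length. Among the other 1653 protein-coding genes with such models the median was 2.97 per kb, at a median exon length of 936 bp. That set is low in level, as 17.4% of it reached a mean of 10, against 59.6% of all protein-coding genes. The 52 genes with such models had a median of 69.2 per kb. Among the other 352 single-exon protein-coding genes, with a median exon length of 372 bp, the median was 15.6 per kb. The median of the 70 was above 90.9% of the first set and 67.9% of the second. Of the 70, 53 were above the median of all protein-coding genes, 17.7 per kb, and 17 below it. Of the 70, 0 stood above 90% of protein-coding genes. The highest per kb were *msp-40* (277) and *nspa-8* (275). The 52 models without UTR include all 51 single-exon genes. Single-exon genes are 72.9% of the 70 and 2.28% of the protein-coding genes in the table.

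**Figure D3:**
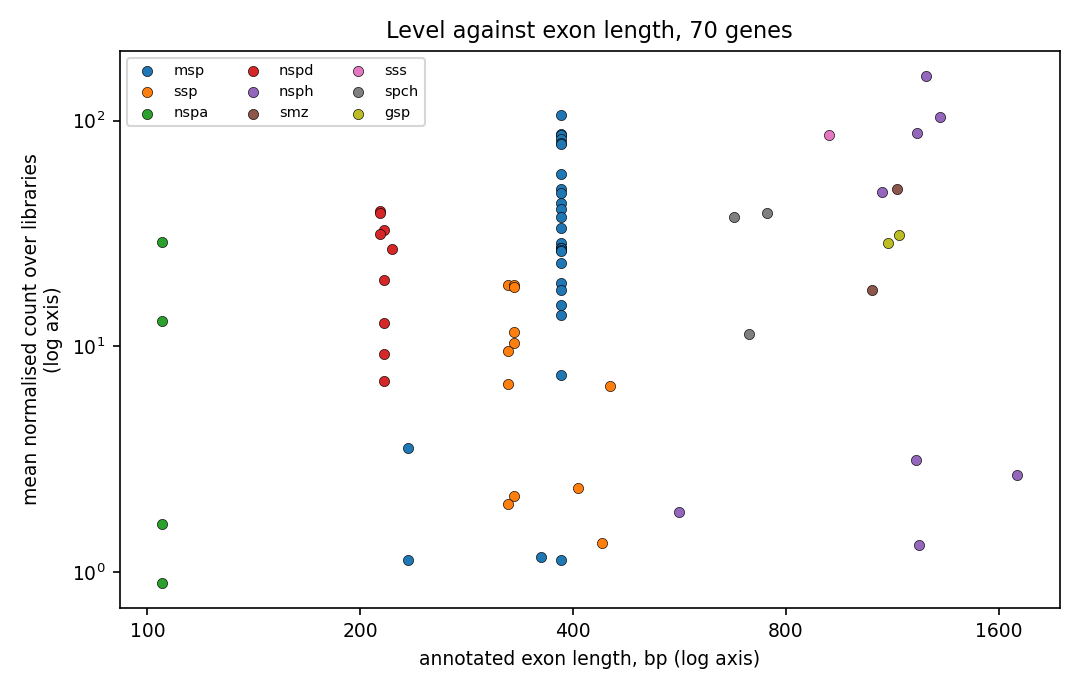
Mean normalised count against annotated exon length in bp for the 70 genes (both axes log), coloured by family. At the shared 384 bp of the full-length *msp* genes the mean spans 1.13 to 106.3, and the longer *nsph* genes reach both 1.31 and 157.6.

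Marker genes of other cell types were read on the same scale per kb. All 14 oocyte markers had a higher level than every one of the 70 genes, from 457 per kb for *lin-41*, a regulator of oocyte growth, to 3856 for *perm-2*, an eggshell protein, with a median of 1337. The libraries thus carried the markers of the labelled cell type at high levels. The 8 gonadal sheath markers had a median of 102 per kb and ran from 18.1 (*tln-1*) to 1117 (*inx-8*, a sheath gap junction subunit). The 5 spermatheca markers had a median of 253, with 81.1 for *sth-1* and 414 for *par-3*, a polarity gene that oocytes also use. The 10 intestine markers had a median of 24.2, from 11.7 (*elt-2*, the intestinal GATA factor) to 74.4 (*vit-2*, a yolk protein gene), and the 4 body wall muscle markers one of 191. The sheath and body wall muscle lists share *myo-3* (48.4 per kb). Which tissue the RNA of the muscle genes came from was not tested. Of the early embryo markers, 4 of the 5 had a row, with a median of 4.76 per kb and 12.1 for the highest, *end-3*. The part of stored sperm or of attached tissue in the values of the 70 genes was not tested.

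**Figure D4:**
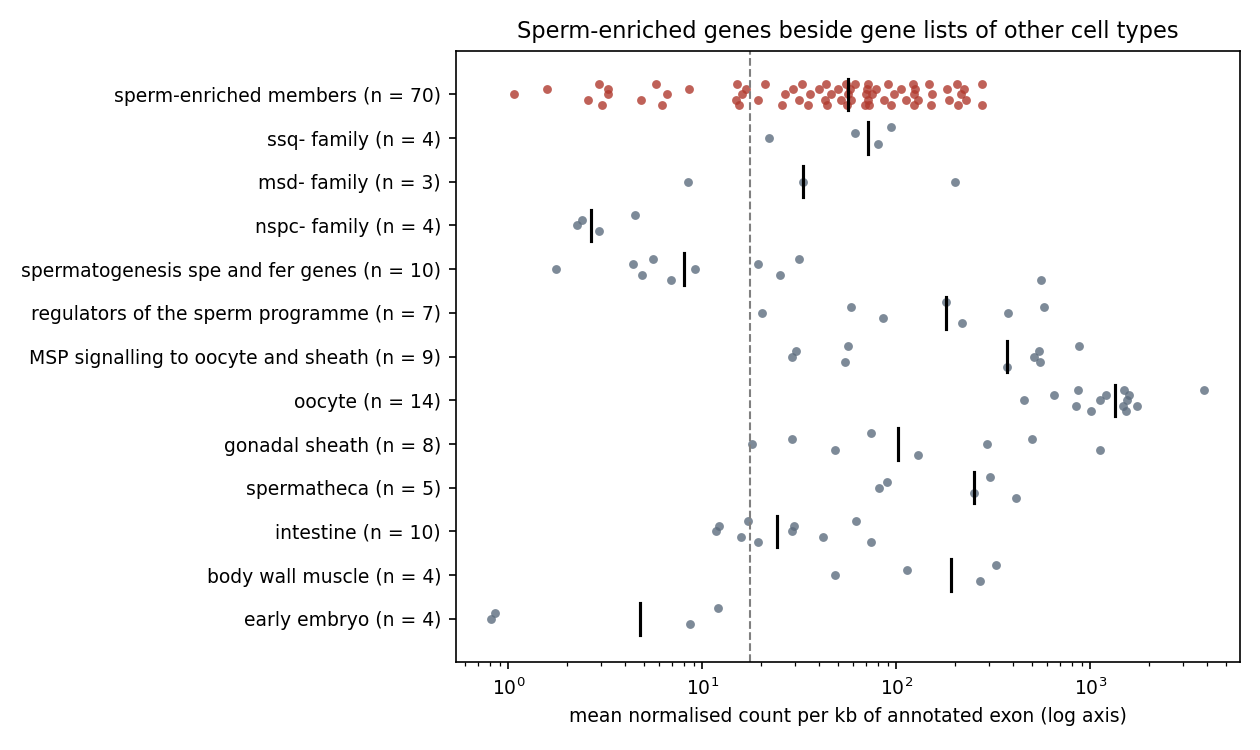
Mean normalised count per kb of annotated exon (log axis) for the 70 sperm-enriched genes (red) and for listed genes of other families and cell types (grey), with the median of each (black bar) and that of protein-coding genes (dashed line, 17.7). The oocyte markers, from 457 to 3856, lie wholly to the right of the 70 genes, whose highest is 277.

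Other listed genes of sperm, apart from *spe-10*, and the listed *nspc* genes lay within the range of the 70 genes, which was 1.06 to 277 per kb. The 4 *ssq* genes, a further sperm-specific family, had a median of 71.0 per kb and ran from 22.1 (*ssq-3*) to 93.5 (*ssq-1*). The 3 *msd* genes, which encode proteins with an MSP domain, had 201 (*msd-4*), 32.9 (*msd-2*) and 8.42 (*msd-1*) per kb. The 4 *nspc* genes of another nematode-specific family ran from 2.26 to 4.48. The 10 listed *spe* and *fer* genes, which act in sperm formation and function, had a median of 7.99 per kb. *spe-9*, a sperm surface protein needed at fertilisation, had 1.75 per kb, *spe-11*, a paternal factor needed by the embryo, had 19.4, and *fer-1*, a membrane fusion protein, had 6.88. *spe-10*, whose product acts in the sorting of sperm organelles, had 558 per kb, above every one of the 70 genes.

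Of the 9 listed genes of MSP signalling to oocyte and sheath, 5 were above every one of the 70 genes per kb. *vab-1*, which encodes a receptor for MSP, had 512 per kb, and *goa-1*, a G protein subunit that restrains maturation, had 541. *inx-14* and *inx-22*, which encode gap junction subunits of the germline, had 876 and 547. *mpk-1*, the MAP kinase activated in maturing oocytes, had 371. *acy-4* (54.1), *gsa-1* (56.3) and *kin-1* (30.3), which carry the cyclic AMP signal of the sheath, and *ceh-18* (29.1), a sheath transcription factor, were within the range of the 70 genes. Of the 7 listed regulators of the sperm programme, *fem-3* (573) and *snpc-4* (375) were above every one of the 70 genes. The others were *fog-1* (218), *spe-44* (180), *tra-1* (85.3), *elt-1* (58.6) and *fog-3* (20.2). *fem-3*, *fog-1*, *fog-3* and *tra-1* act in the choice between sperm and oocyte, *spe-44* and *elt-1* encode transcription factors of sperm genes, and *snpc-4* acts in piRNA transcription.

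Overlap with other genes concerned 4 of the 70. Besides *nspa-8* and *nsph-1.1*, *msp-33* lies opposite to *gst-9* (mean 206) and *msp-38* opposite to *dhs-12* (mean 199.9). The part of these neighbours in the values was not tested. The other 66 overlap no annotated gene. The annotation holds 79 genes with names of these families, and 70 of them had a row, including 29 of 31 *msp* and 4 of 10 *nspa* genes. The others were not analysed here. Names follow the table, although the annotation calls *ssp-11*, *nspa-3* and *nspa-4* by the names *ssp-9*, *nspa-1* and *nspa-5*. The lowest of the 70, *nspa-3*, would amount to a sum of 15.2 normalised counts if all 17 libraries of the labels were entered, and no error can be given for differences among genes at such low levels.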

How the data were processed

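Per the labels, libraries were made with a stranded total RNA kit for small inputs. The authors aligned reads to WBcel235, counted them with STARsolo, dropped genes under 10 reads in total and ran DESeq2. Versions and the libraries entered are not given in the sources used here.

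The deposited signal used is the mean normalised count, averaged by the authors over libraries after size-factor scaling. The other 5 columns (fold change, its error, test score, p and adjusted p) are the authors' own comparison and were not used. Without values per library, depth is unknown, no error could be given and no test was run, so the edgeR comparison planned for counts was not made. If all 17 libraries were entered, 463 genes would sum to under 10 normalised counts, and how this relates to the read filter was not tested.

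Identifiers were matched to Ensembl release 115 for WBcel235 (21399 of 21459, and all 70 genes described). Exon length is the union of annotated exons, and close pairs and marker lists are given per kb. Family medians are given both per kb and not divided by length, and the text says per kb where it applies. Shares of genes at a floor, sums and the ratio to *oma-1* were not divided by length. Percentiles give the share of genes below a value. The 70 genes and the other lists were chosen with earlier results of these data known, and every one of the 70 is named. Functions were tested on simulated data. Python 3.11.15, numpy 2.4.6, pandas 2.3.3 and matplotlib 3.10.9 were used. No sequence was used here.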

Additional observations from a re-analysis of the deposited data

How the results depend on the processing

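A total of 17 alternatives to 4 results were tried, of which those without overlapped genes and without the *nsph* genes were chosen after seeing the data. A value was taken as moved when it changed by over 1.5 times, or when a rank changed. The 50 genes at a mean of at least 10 became 3 at a floor of 100, since few of the 70 genes are so abundant. The *msp* family, at rank 5 of 9 by its median, had rank 1 by the sum over its members, because it has the most genes, and rank 3 per kb of exon, where division by length raises short genes. The other 14 alternatives stayed within 1.5 times. The median of 24.9 lay between 24.9 and 31.2, and the share of 0.0493% between 0.0401% and 0.0504%. No paired analysis was possible because the mean used is pooled over both groups and carries no replicate number. For the same reason no replicate could be left out and no other count test, normalisation or filter on low counts was run. All of the 70 genes are protein-coding, so that limit changed nothing for the median and the count. The depth of single libraries is unknown.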
